A study of Homo sapiens with 18 samples.

Results

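DNA methylation was examined around 10 microRNA genes that are known for silencing in tumours, MIR34A, MIR34B, MIR34C, MIR124-1, MIR124-2, MIR124-3, MIR9-1, MIR9-3, MIR129-2 and MIR137. The genes were chosen by name, with earlier results of these data known. Each was described by the CpGs within 2 kb either side of its hairpin on GRCh37. They are 10 of the 1798 named microRNA hairpins that could be placed on that build. The windows of MIR34B and MIR34C overlap and hold the same covered CpGs, so the 10 genes give 9 distinct regions. Reduced representation bisulfite sequencing (RRBS), which counts methylated and unmethylated reads at CpGs near MspI cutting sites, was available for 3 established human cancer lines. These are HCT15, a colon cancer line, and DU145 and PC3, which are prostate cancer lines, all without any treatment or genetic change named in the labels. DNA of the same lines was also captured with 5 kits built on methyl-CpG-binding domain (MBD) proteins and sequenced, which gave 15 libraries. Each line had 1 RRBS library, and each kit was applied 1 time to each line. The labels name 1 supplier for all lines, but the methods give DU145 another source and a later passage, so line, source and passage cannot be told apart. With 1 library per line there is no replicate error, and every test on reads compares libraries and covers counting error only.

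MicroRNAs are cut from hairpin precursors and guide the silencing machinery to messenger RNAs through the seed near their 5′ end. The miR-34 family is induced by the tumour suppressor p53 and restrains the cell cycle. The miR-124 and miR-9 families are abundant in the nervous system, where they promote neuronal differentiation, and each is encoded by several genes at distant sites. Dense methylation of the CpG islands around such genes is a known companion of their loss of expression in tumours, although expression was not measured here.

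The mature microRNAs are shown because the members belong to families that are defined by their seeds. The sequences are RNA from RefSeq (GRCh38.p14), which held mature entries for MIR34A, MIR34B, MIR34C, MIR9-1, MIR9-3, MIR129-2 and MIR137, and the capitals mark the seed, bases 2 to 8.
hsa-miR-34a-5p: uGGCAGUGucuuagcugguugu
hsa-miR-34a-3p: cAAUCAGCaaguauacugcccu
hsa-miR-34b-5p: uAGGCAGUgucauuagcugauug
hsa-miR-34b-3p: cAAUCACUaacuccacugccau
hsa-miR-34c-3p: aAUCACUAaccacacggccagg
hsa-miR-9-5p: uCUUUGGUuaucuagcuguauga
hsa-miR-9-3p: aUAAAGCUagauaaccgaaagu
hsa-miR-129-5p: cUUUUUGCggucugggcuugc
hsa-miR-129-2-3p: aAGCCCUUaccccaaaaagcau
hsa-miR-137-5p: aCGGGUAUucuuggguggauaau
hsa-miR-137-3p: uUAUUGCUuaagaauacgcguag
The 11 sequences carried 11 distinct seeds. The other product of MIR34C, hsa-miR-34c-5p, had no entry there, so its seed was not compared with those of the family. The seeds of miR-34a-5p and miR-34b-5p shared a run of 6 bases, shifted by a single position, as did those of miR-34b-3p and miR-34c-3p. MIR9-1 and MIR9-3 encode identical mature sequences.

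The genomic stretches below hold the most CpGs that passed the test between cell lines, for the 3 regions with the largest difference in mean methylation among those whose sequence was read. Each is 200 bases of the plus strand of GRCh37, with every CG in capitals.
MIR34B and MIR34C chr11:111383440-111383639: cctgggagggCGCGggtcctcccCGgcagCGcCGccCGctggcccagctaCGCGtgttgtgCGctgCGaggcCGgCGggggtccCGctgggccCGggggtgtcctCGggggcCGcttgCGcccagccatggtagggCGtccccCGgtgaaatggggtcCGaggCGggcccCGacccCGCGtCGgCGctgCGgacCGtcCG
MIR137 chr1:98510907-98511106: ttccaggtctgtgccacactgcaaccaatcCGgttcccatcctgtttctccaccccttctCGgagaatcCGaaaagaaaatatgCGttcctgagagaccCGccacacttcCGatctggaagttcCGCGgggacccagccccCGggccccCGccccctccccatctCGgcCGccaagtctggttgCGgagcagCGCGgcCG
MIR124-3 chr20:61808916-61809115: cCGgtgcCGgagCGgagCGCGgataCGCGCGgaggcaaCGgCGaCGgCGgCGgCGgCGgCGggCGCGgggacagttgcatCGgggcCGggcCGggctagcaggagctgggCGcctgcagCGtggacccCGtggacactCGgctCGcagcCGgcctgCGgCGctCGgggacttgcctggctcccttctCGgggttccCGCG
The stretch at MIR34B and MIR34C lies upstream of the MIR34B hairpin, in an intron of BTG4 on the minus strand and of the host RNA MIR34BHG on the plus strand. It holds 29 CpGs, of which 15 passed the test in at least 1 pair of lines. Mean methylation there was 95.3% in HCT15 and 14.8% in DU145, over 16 CpGs in each, and 92.0% over 27 CpGs in PC3. The MIR137 stretch overlaps an exon of the host RNA MIR137HG downstream of the hairpin and holds 16 CpGs, of which 13 passed. Its means were 81.2%, 14.97% and 84.99% in HCT15, DU145 and PC3, over 15 CpGs in each line. The MIR124-3 stretch is upstream of that hairpin, in an intron of the antisense RNA ENSG00000231977, with 30 of its 33 CpGs passing. Here the means were 94.6%, 46.9% and 38.03%, over 32 CpGs in each line.

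With a minimum of 10 reads, RRBS covered 460 CpGs of these regions in HCT15, 449 in DU145 and 517 in PC3. Their median coverage was 23, 55 and 34 reads. The MBD-seq libraries ranged from 10040 to 7344098 fragments. CpGs methylated at 80% or more in a single line and at 20% or less in the others served to check the lines. In 12 of the 15 MBD-seq libraries the depth was highest over the CpGs of the line on the label, and in 0 of the 3 MethylMiner libraries. The MethylMiner values below therefore have no such check of their line.

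All 9 regions had a mean methylation of at least 50% in HCT15, 4 did in DU145 and 5 in PC3. Over all named hairpin windows with at least 5 covered CpGs, 71% reached that level in HCT15, 70.6% in DU145 and 67.4% in PC3. In this RRBS background, here and below, every hairpin counts as its own window, these genes included. Overlapping windows are not joined there, unlike those of MIR34B and MIR34C among the 9 regions. The median region of these genes stood at 88.3% in HCT15, 46.3% in DU145 and 58.0% in PC3, against 80.0035%, 87.2% and 75.2% over all hairpin windows. The prostate lines were thus below the median hairpin window at these genes and HCT15 was above it, which is a description without a test. The median named hairpin window holds 60 CpGs, whereas those of these genes hold 82 to 376. In the comparison list of other microRNA genes given below, the median window stood at 53.0% in HCT15 (20 windows), 55.5% in DU145 (21) and 58.1% in PC3 (19). Against that list, HCT15 was higher at these genes, DU145 lower and PC3 about level. That list too was chosen with earlier results of these data known, so this is a description only. The spread given with each mean below is the SD over CpGs of a region and not an error between samples.

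**Figure D1:**
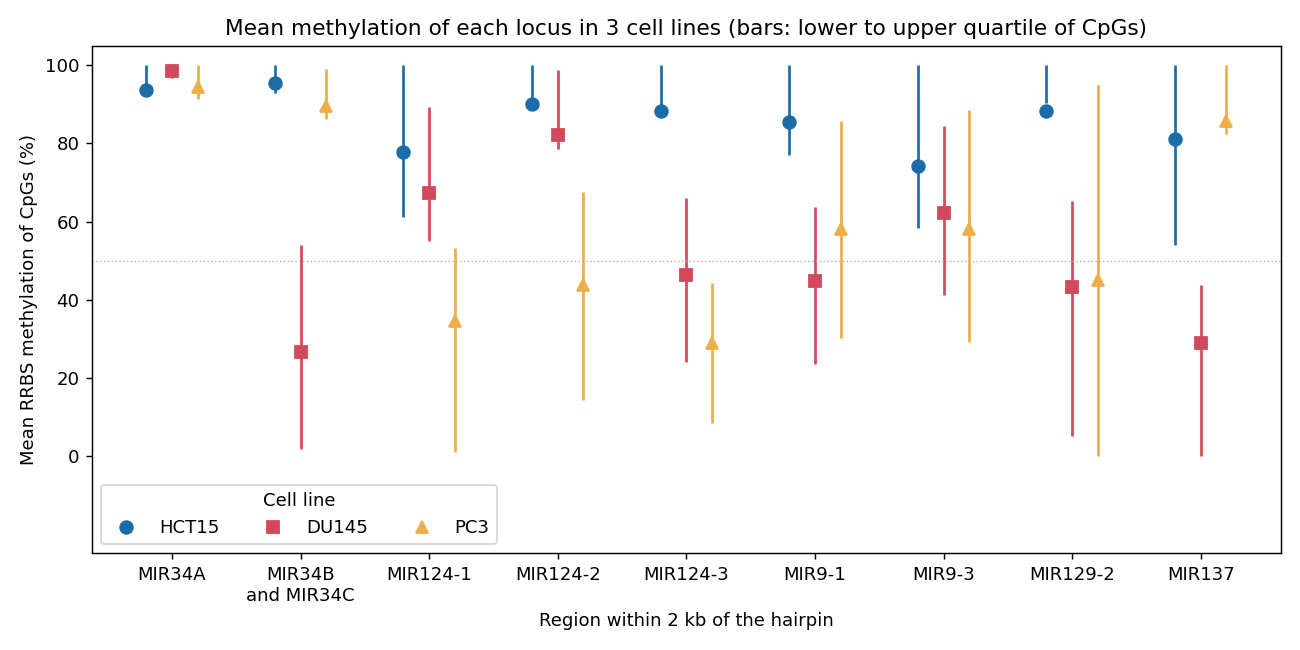
Mean RRBS methylation (percent) of each region within 2 kb of the hairpin in HCT15, DU145 and PC3, with bars from the lower to the upper quartile of CpGs and a dotted line at 50%. All HCT15 means lie above the line, while DU145 reaches 26.6% at MIR34B and MIR34C and PC3 reaches 29.0% at MIR124-3.

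Single CpGs were compared by Fisher's exact test, with Benjamini-Hochberg adjustment over all CpGs of the genome covered by at least 10 reads in both lines. A CpG was called when the adjusted p was at most 0.05 and methylation differed by at least 25 percentage points. Between HCT15 and DU145, 225 of 400 CpGs at these genes were called higher in HCT15 (56.2%), against 7.18% of all CpGs tested. In the other direction 8 were called higher in DU145 (2.0%, against 6.95%). Between HCT15 and PC3, 225 of 438 were higher in HCT15 (51.4%, against 11.3%) and 2 were higher in PC3 (0.46%, against 3.8%). The regions weigh unequally in these shares. MIR124-3 alone gave 118 of the 225 calls against PC3, from 142 CpGs, and 79 of the 225 against DU145, from 124. The prostate lines differed from each other in both directions, with 87 of 427 CpGs higher in DU145 (20.4%, against 12.1%) and 82 higher in PC3 (19.2%, against 3.38%). CpGs within a region share reads and fragments and are not independent. Reads may also outnumber molecules at some CpGs. At chr8:9762732, for example, coverage was 52, 96 and 32 in HCT15, DU145 and PC3, against 26, 48 and 16 at chr8:9762740. If fragments were counted more than 1 time at such CpGs, the intervals, limits and p-values there are too narrow or too small, which was not tested. A CpG that was not called is not shown to be alike, since the coverage leaves moderate differences undetected.

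**Figure D2:**
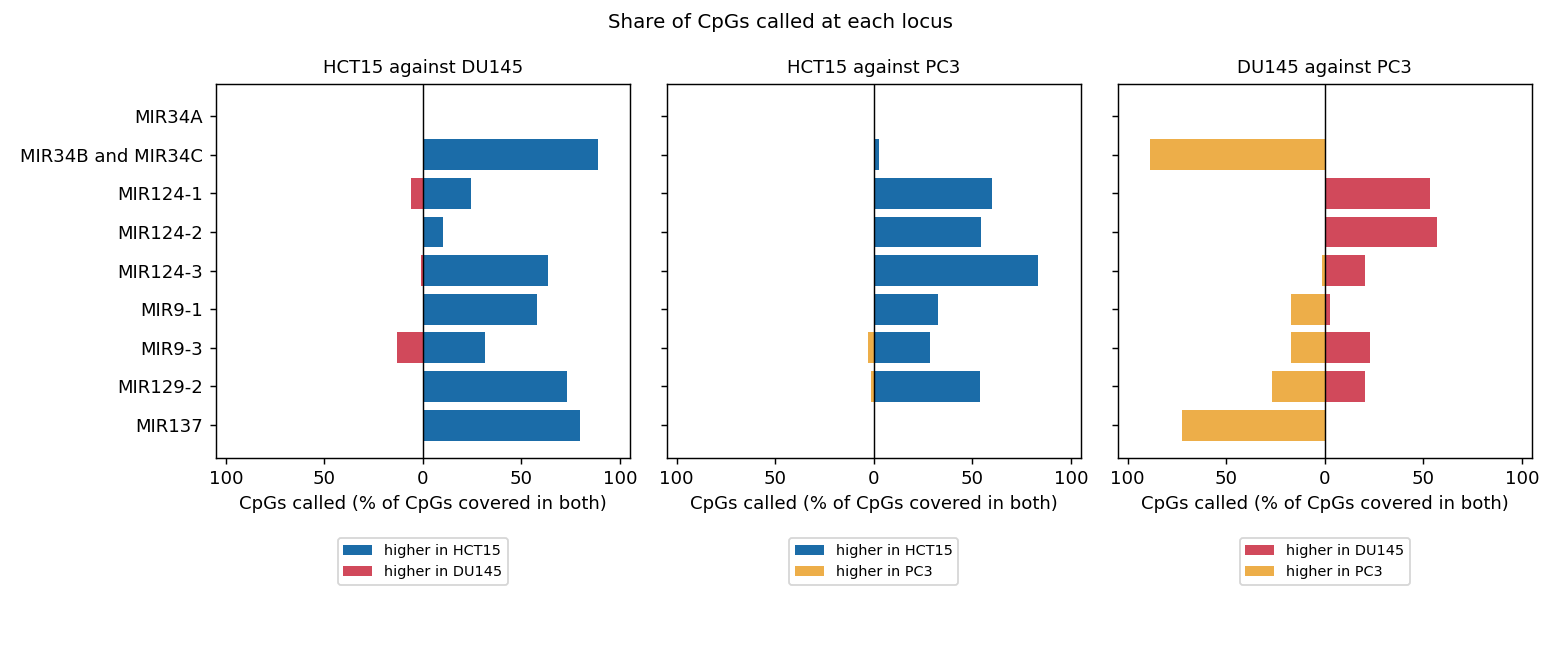
Share of CpGs called at each region for each pair of cell lines, as a percent of CpGs covered in both lines, with bars to the right for the first line named and to the left for the second. Most called CpGs are higher in HCT15 in both of its panels, whereas DU145 against PC3 splits into regions higher in PC3 (MIR34B and MIR34C, MIR137) and regions higher in DU145 (MIR124-1, MIR124-2).

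By region, the mean was at least 25 points higher in HCT15 than in DU145 at 5 of 9 regions, against 4.74% of all hairpin windows, and at 0 of 9 in the other direction, against 5.79%. Against PC3, HCT15 was higher by that much at 4 of 9 regions (background 9.05%) and lower at 0 of 9 (background 3.98%). DU145 exceeded PC3 at 2 of 9 regions (background 9.63%) and PC3 exceeded DU145 at 2 of 9 (background 2.75%). The median difference over the 9 regions was 37.9 points for HCT15 minus DU145, 24.4 for HCT15 minus PC3 and 2.75 for DU145 minus PC3. Over all hairpin windows the medians were -2.11, -0.35 and 1.5 points.

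CpGs inside CCGG, the site MspI cuts, gave higher values than their neighbours. Across the genome, methylation was at most 20% at 2.92%, 2.01% and 3.50% of CpGs in CCGG in HCT15, DU145 and PC3, but at 31.1%, 28.4% and 35.0% of other CpGs. At the 9 regions the 86 CCGG CpGs of DU145 averaged 68.6% and the 363 others 45.1%. The corresponding means in PC3 were 65.9% over 92 CpGs and 44.8% over 425, and in HCT15 87.2% over 84 and 86.3% over 376. Without these CpGs, all 13 differences of at least 25 points between lines at the 9 regions stayed above 25 points. Host starts and the comparison list were not recomputed in this way. Why CpGs in CCGG read higher was not tested.

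MIR34A gave little RRBS information. The hairpin is at chr1:9211727-9211836 on the minus strand, in an exon of the host RNA MIR34AHG, and its window holds 82 CpGs, of which 5 were covered. Their mean methylation was 93.8% ± 7.7 in HCT15, 98.7% ± 1.8 in DU145 and 94.3% ± 7.5 in PC3 (SD, n = 5 CpGs), and no CpG was called in any pair. The values of the lines overlapped. At this locus transcription starts 30561 bases upstream, at the 5′ end of MIR34AHG, where p53 is known to act. Within 2 kb of that start the mean was 62.2% ± 21.99 in HCT15 (SD, n = 47 CpGs), 26.8% ± 30.2 in DU145 (n = 26) and 19.4% ± 24.8 in PC3 (n = 47). HCT15 was therefore higher around the start than the prostate lines, while the 5 CpGs covered near the hairpin, all upstream of it, were highly methylated in all 3 lines. Within 200 bases of the start DU145 had 0 covered CpGs, and over 6 CpGs HCT15 averaged 51.7% ± 13.6 and PC3 31.7% ± 32.7. Of the 26 CpGs covered in HCT15 and DU145, 21 were called higher in HCT15 and 0 lower, and of the 47 covered in HCT15 and PC3, 29 were higher and 0 lower. DU145 exceeded PC3 at 4 of 26 CpGs.

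MIR34B and MIR34C are processed from a single host transcript, MIR34BHG, and by the annotation used both also lie in an intron of BTG4 on the opposite strand. Their hairpins are at chr11:111383663-111383746 and chr11:111384164-111384240 on the plus strand. RRBS covered 36 CpGs in HCT15, 41 in DU145 and 49 in PC3. HCT15 was at 95.5% ± 5.0 and PC3 at 89.6% ± 14.7, while DU145 was at 26.6% ± 30.8 (SD over CpGs). Of its CpGs, 23 were methylated at 20% or less, against 0 in the other lines. Over the 36 shared CpGs the difference was 70.3 points between HCT15 and DU145, with 32 called higher in HCT15 and 0 lower, and PC3 exceeded DU145 by 63.3 points with the same count of 32. HCT15 and PC3 differed by 7.0 points, with 1 CpG called. Within 0.5 kb upstream of MIR34B, inside the stretch printed above and next to it, DU145 averaged 18.3% over 28 CpGs. More than 1 kb downstream of MIR34C it averaged 53.9% over 9 CpGs. In CCGG its 9 CpGs averaged 70.5% and the other 32 averaged 14.3%, and outside CCGG the difference from HCT15 was 81.1 points. At chr11:111383545, 118 bases upstream of MIR34B, all 48 reads were methylated in HCT15 (Wilson 95% interval 92.6 to 100%) and 64 of 76 in PC3. In DU145 0 of 172 were, which allows a share of up to 1.74% (Fisher's exact test for HCT15 against DU145, adjusted p = 6e-47). This limit, like those given below for CpGs with 0 methylated reads, is 3 divided by the number of reads. The upper Wilson limit is higher, at 2.18% here. No CpG was covered within 200 bases of the annotated start of MIR34BHG, 2336 bases upstream.

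**Figure D3:**
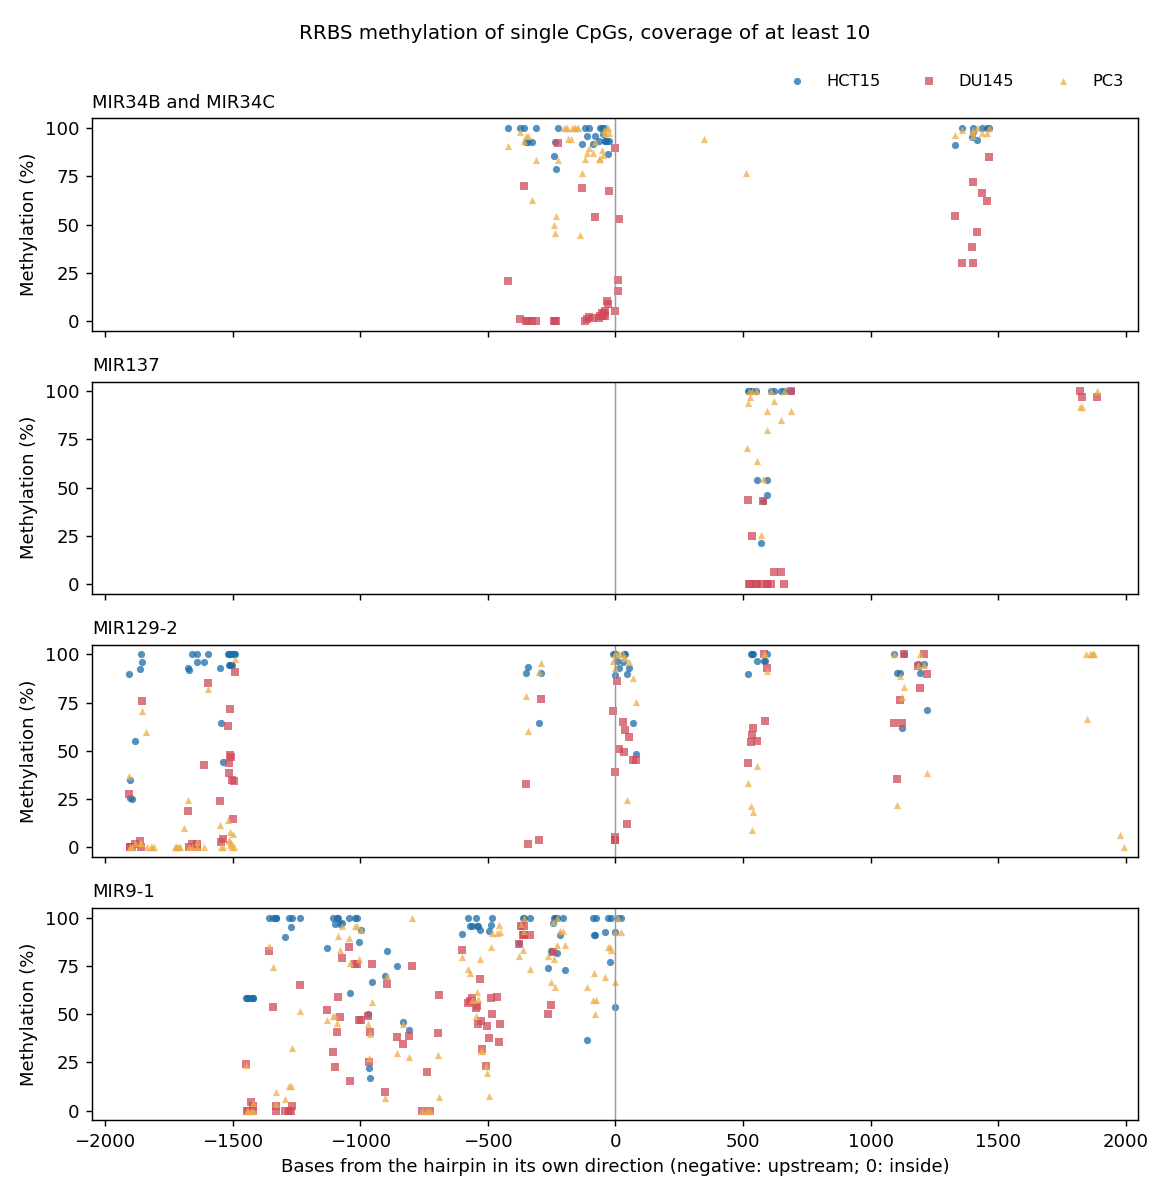
Methylation (percent) of each CpG with at least 10 RRBS reads against its distance from the hairpin in bases, for MIR34B and MIR34C, MIR137, MIR129-2 and MIR9-1, with a point for each CpG in HCT15, DU145 and PC3 and negative distances upstream. DU145 averages 18.3% upstream of MIR34B within 0.5 kb and 14.97% in the cluster downstream of MIR137, and at MIR129-2 PC3 passes from low values upstream to 98.2% in the hairpin.

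MIR137, the source of a neuronal microRNA that targets the cell cycle kinase CDK6, also had its lowest mean in DU145. Its hairpin is at chr1:98511626-98511727 on the minus strand, in an exon of MIR137HG, and none of the 8 CpGs in it were covered. The covered CpGs lay downstream. HCT15 averaged 81.2% ± 28.4 over 15 CpGs, DU145 28.8% ± 40.8 over 18 and PC3 85.7% ± 19.6 over 19. Of the 15 CpGs shared by HCT15 and DU145, 12 were called higher in HCT15 and 0 lower, with a difference of 66.3 points. Of the 18 shared by DU145 and PC3, 13 were higher in PC3 and 0 lower, with a difference of 57.8 points. HCT15 minus PC3 was -3.76 points with 0 of 15 CpGs called. All 3 remaining CpGs of DU145, more than 1 kb downstream, averaged 97.9%, so the low values were limited to the cluster printed above among the CpGs covered. Outside CCGG the difference between HCT15 and DU145 was 78.2 points, and PC3 exceeded DU145 by 71.2 points. At chr1:98511076 the reads were methylated in 24 of 24 in HCT15, 0 of 31 in DU145 (up to 9.68%) and 66 of 66 in PC3 (Fisher's exact test for DU145 against PC3, adjusted p = 5.4e-24). Near the start of MIR137HG only 1, 3 and 5 CpGs were covered, so the start could not be compared.

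The miR-124 genes share their mature product, which represses CDK6 among other targets, and stood highest in HCT15 and lowest in PC3. MIR124-3 at chr20:61809852-61809938 on the plus strand has the window with the most CpGs of these genes, 376. It averaged 88.3% ± 21.3 in HCT15 (SD, n = 153 CpGs), 46.3% ± 25.6 in DU145 (n = 142) and 29.0% ± 23.7 in PC3 (n = 163). DU145 thus lay between the others. Between HCT15 and PC3, 118 of 142 CpGs were called higher in HCT15 and 0 lower, with a difference of 57.9 points. Between HCT15 and DU145, 79 of 124 were higher in HCT15 and 1 was lower, with 43.1 points. DU145 and PC3 were closer, with 27 of 133 CpGs higher in DU145, 2 higher in PC3 and a difference of 13.5 points. In PC3 the 24 CpGs in CCGG averaged 61.9% and the 139 others 23.3%, and outside CCGG the difference from HCT15 was 64.2 points. At chr20:61809534, 318 bases upstream of the hairpin, 20 of 20 reads were methylated in HCT15 and 0 of 33 in PC3 (up to 9.09%, Fisher's exact test, adjusted p = 2.4e-13), and DU145 was not covered there. HCT15 also had low CpGs, with a mean of 25.6% ± 40.1 at 8 CpGs 0.5 to 1 kb downstream.

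MIR124-1 and MIR124-2, both on chromosome 8, separated PC3 from the other lines. The MIR124-1 hairpin, at chr8:9760898-9760982 on the minus strand in an exon of MIR124-1HG, was placed through a stretch of 31 bases that the other MIR124 hairpins share. Its mean was 77.7% ± 32.3 in HCT15 (SD, n = 33 CpGs), 67.3% ± 28.2 in DU145 (n = 35) and 34.4% ± 34.9 in PC3 (n = 30). HCT15 exceeded PC3 by 48.8 points over 30 CpGs, with 18 called higher and 0 lower. DU145 exceeded PC3 by 39.3 points, with 16 called higher and 0 lower. HCT15 and DU145 differed by 8.7 points and in both directions, with 8 of 33 CpGs called higher in HCT15 and 2 higher in DU145. Along the locus, the 9 CpGs 0.5 to 1 kb upstream averaged 94.7%, 74.5% and 14.0% in HCT15, DU145 and PC3. Closer to the hairpin, within 0.5 kb upstream, the means of all lines were low, at 26.4% ± 30.9 (6 CpGs), 24.9% ± 26.4 (6) and 13.3% ± 23.1 (3). Single CpGs varied, and chr8:9761412 there stood at 73.5%, 60.3% and 40%. The CpG with the largest difference, at chr8:9761558, had 42 of 42 reads methylated in HCT15, 58 of 107 in DU145 and 0 of 27 in PC3 (up to 11.1%, Fisher's exact test for HCT15 against PC3, adjusted p = 7.2e-18). Nearby chr8:9761599 had 21, 55 and 14 reads in these lines, so the reads at chr8:9761558 may outnumber molecules.

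MIR124-2 is at chr8:65291706-65291814 on the plus strand, in an exon of MIR124-2HG. It averaged 90.1% ± 18.0 in HCT15 (SD, n = 40 CpGs), 82.2% ± 22.8 in DU145 (n = 37) and 43.8% ± 28.4 in PC3 (n = 43). PC3 was low and the other lines overlapped. HCT15 exceeded PC3 by 41.2 points, with 19 of 35 CpGs called higher and 0 lower, and DU145 exceeded PC3 by 38.03 points, with 21 of 37 higher and 0 lower. HCT15 and DU145 differed at 3 of 29 CpGs, all higher in HCT15. At chr8:65290421, 17 of 17 reads were methylated in HCT15, 62 of 78 in DU145 and 5 of 50 in PC3 (Fisher's exact test for HCT15 against PC3, adjusted p = 2.5e-10). Around the start of the host RNA, 6044 bases upstream, DU145 stood at 89.6% (25 CpGs) and PC3 at 35.7% (41), with 17 of 25 shared CpGs called higher in DU145 and 0 lower, and 4 CpGs of HCT15 averaged 81.2%. The start of MIR124-1HG, 15761 bases upstream of its hairpin, had 2 covered CpGs in PC3 and could not be compared with it. Over 8 CpGs shared by HCT15 and DU145 the means there were 48.0% and 66.6%, with 0 called higher in HCT15 and 2 higher in DU145.

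**Figure D4:**
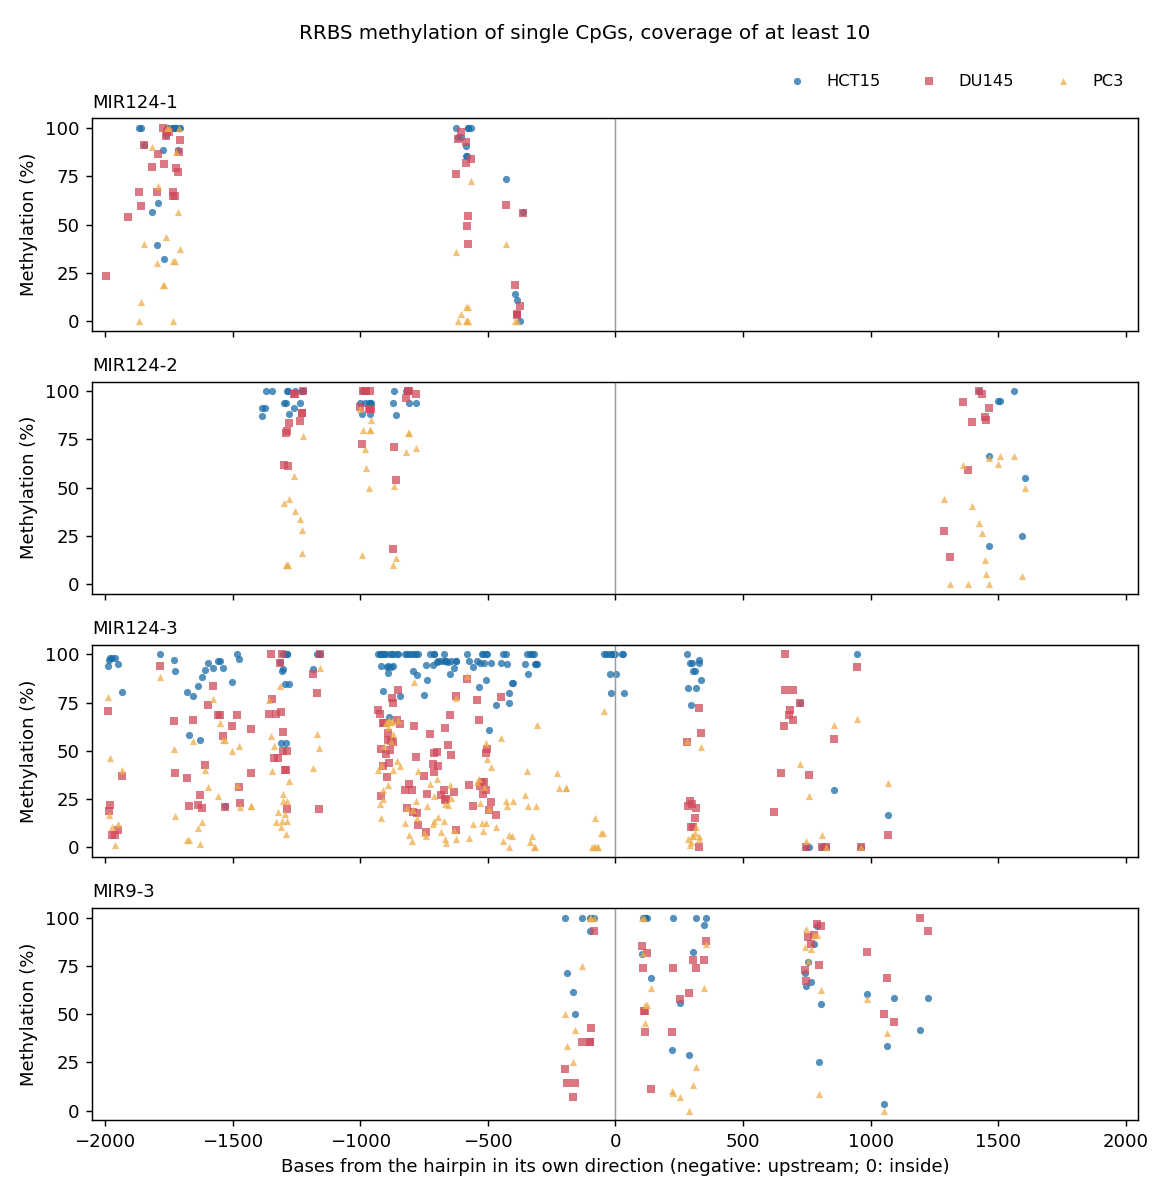
Methylation (percent) of each CpG with at least 10 RRBS reads against its distance from the hairpin in bases, for MIR124-1, MIR124-2, MIR124-3 and MIR9-3, with a point for each CpG in HCT15, DU145 and PC3 and negative distances upstream. PC3 lies below HCT15 at most CpGs of the MIR124 genes, and within 0.5 kb upstream of MIR9-3 DU145 averages 33.3% against 86.2% in HCT15.

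MIR9-1 separated HCT15 from DU145. The hairpin is at chr1:156390133-156390221 on the minus strand, in an exon of MIR9-1HG. Its region averaged 85.5% ± 20.2 in HCT15 (SD, n = 77 CpGs), 44.7% ± 28.9 in DU145 (n = 70) and 58.1% ± 33.0 in PC3 (n = 90). The difference between HCT15 and DU145 was 37.9 points, with 33 of 57 CpGs called higher in HCT15 and 0 lower. Against PC3 it was 24.4 points, just under the threshold, with 25 of 77 CpGs higher in HCT15 and 0 lower. DU145 and PC3 differed by 7.5 points, with 12 of 70 CpGs called higher in PC3 and 2 higher in DU145. The contrast depended on position. Within 200 bases of the annotated start of MIR9-1HG, 15 CpGs averaged 82.3% in HCT15, 15.8% in DU145 and 21.1% in PC3. Within 0.5 kb upstream of the hairpin the means were 91.1% (28 CpGs), 68.1% (15) and 79.3% (31), so the lines came closer together near the hairpin. At chr1:156391500, 20 of 20 reads were methylated in HCT15, 0 of 43 in DU145 (up to 6.98%) and 4 of 31 in PC3 (Fisher's exact test for HCT15 against DU145, adjusted p = 3.7e-15).

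MIR9-3, at chr15:89911248-89911337 on the plus strand in an exon of MIR9-3HG, had no pair of lines 25 points apart, like MIR34A. HCT15 averaged 74.2% ± 26.8 (SD, n = 38 CpGs), DU145 62.2% ± 27.0 (n = 38) and PC3 58.0% ± 34.2 (n = 35). The sign of the difference between HCT15 and DU145 depended on the processing, at 12.0 points here, -13.1 with coverage of at least 20 and -5.72 with pooled reads. The means hid changes in both directions. Within 0.5 kb upstream DU145 was lowest, with 33.3% against 86.2% in HCT15 and 69.4% in PC3 over 9 CpGs, and 0.5 to 1 kb downstream it was highest, with 84.2% against 67.0% and 72.4% over 9 CpGs. Of 38 CpGs, 12 were called higher in HCT15 and 5 higher in DU145, and of the 35 shared by DU145 and PC3, 8 were higher in DU145 and 6 higher in PC3. HCT15 exceeded PC3 at 10 of 35 CpGs and was lower at 1. The CpG at chr15:89911562, which lies in a CCGG, had 16 of 16 reads methylated in HCT15, 20 of 27 in DU145 and 1 of 11 in PC3 (Fisher's exact test for HCT15 against PC3, adjusted p = 1.9e-05). Around the farthest upstream start of MIR9-3HG, 6438 bases from the hairpin, the mean was 73.6% in HCT15 (44 CpGs), 41.9% in DU145 (46) and 39.7% in PC3 (44), with 21 of 44 CpGs called higher in HCT15 than in DU145 and 2 lower, and 17 of 44 higher than in PC3 and 0 lower. The window around a further start, 5508 bases upstream, overlaps it.

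MIR129-2 changed along the locus in PC3. Its hairpin is at chr11:43602944-43603033 on the plus strand, in introns of the long noncoding RNAs ENSG00000283217 and ENSG00000283341. The region averaged 88.3% ± 18.9 in HCT15 (SD, n = 63 CpGs), 43.3% ± 32.4 in DU145 (n = 63) and 44.9% ± 43.5 in PC3 (n = 83), so the prostate lines looked alike by the mean. By position they were not. Between 1 and 2 kb upstream DU145 averaged 27.7% (28 CpGs) and PC3 11.1% (40), against 84.8% in HCT15 (28). In the hairpin itself, 4 CpGs averaged 97.4% in HCT15, 13.0% in DU145 and 98.2% in PC3. Within 0.5 kb upstream, 5 CpGs averaged 87.7%, 37.3% and 84.3%. PC3 was thus below DU145 by its mean at 1 to 2 kb upstream, and near HCT15 in the hairpin and just upstream of it. Within 0.5 kb downstream the means over 9 CpGs were 86.8%, 52.5% and 86.6%, and from 0.5 to 1 kb, over 8 CpGs, they were 97.5%, 66.5% and 51.9%. Between DU145 and PC3, 13 of 63 CpGs were called higher in DU145 and 17 higher in PC3. HCT15 exceeded DU145 at 46 of 63 CpGs and was lower at 0, a difference of 44.97 points, and exceeded PC3 at 34 and was lower at 1, a difference of 39.3 points. The difference from PC3 was 14.6 points when the window was narrowed to 1 kb, and PC3 then exceeded DU145 by 29.5 points. At chr11:43601304, 1640 bases upstream, 50 of 50 reads were methylated in HCT15, 0 of 108 in DU145 (up to 2.78%) and 0 of 100 in PC3 (Fisher's exact test for HCT15 against DU145, adjusted p = 6.5e-40).

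Other microRNA genes that are discussed as methylated in cancers were taken as a comparison list of 30, of which 29 were placed and 20 had enough CpGs in at least 1 pair of lines. Of these 20, 6 differed by at least 25 points in some pair. HCT15 exceeded DU145 by that much at 2 of 20 and fell below it at 3, and exceeded PC3 at 2 of 19 and fell below it at 2. The largest differences were at MIR1258, with means of 91.5% (19 CpGs), 22.8% (43) and 24.8% (43) in HCT15, DU145 and PC3, and at MIR193A, with 69.0%, 13.9% and 12.6%. Over the 19 shared CpGs of MIR1258, HCT15 exceeded DU145 by 58.3 points and PC3 by 53.1. MIR200A and MIR141 belong to a family that guards the epithelial state. MIR200A averaged 59.1%, 97.3% and 92.4% in HCT15, DU145 and PC3. MIR141 averaged 19.1% (30 CpGs), 31.2% (17) and 72.1% (16), but over the 17 CpGs that HCT15 and DU145 share they differed by 0.065 points, and PC3 exceeded DU145 by 42.9 points over 16.

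MBD-seq fragments overlapping the 9 regions were compared with the number expected if the fragments of a library were placed uniformly on chromosomes 1 to 22, X and Y, as a ratio with an exact 95% Poisson interval. MethylCap gave 245, 49 and 50 fragments in HCT15, DU145 and PC3, or 5.23-fold (4.59 to 5.92), 4.93-fold (3.65 to 6.52) and 4.36-fold (3.24 to 5.75) over uniform placement. Over all hairpin windows it gave 3.56-, 3.82- and 3.54-fold. MethylMiner gave 143, 82 and 61 fragments, or 1.61-fold (1.36 to 1.90), 2.3-fold (1.83 to 2.85) and 2.42-fold (1.85 to 3.10), against 1.95-, 2.16- and 2.21-fold over all hairpin windows. The folds of MethylMiner were thus lower than those of MethylCap in each line, and their intervals did not overlap.

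The other kits gave fewer fragments and higher folds in HCT15. MethylMagnet gave 27 fragments there, or 37.3-fold (24.6 to 54.3), MethylCollector 77, or 24.0-fold (18.97 to 30.04), and MethylCollector Ultra 101, or 12.8-fold (10.4 to 15.6). Over all hairpin windows these kits gave 12.4-, 8.83- and 5.48-fold in HCT15. In PC3 the same kits gave 29, 14 and 60 fragments, or 9.93-, 13.7- and 8.60-fold. Over all hairpin windows they gave 7.26-, 8.39- and 4.90-fold in PC3. The intervals of MethylMagnet (6.65 to 14.3) and MethylCollector (7.47 to 22.9) include these values, and that of MethylCollector Ultra (6.56 to 11.1) does not. In DU145 they gave 0, 4 and 2 fragments in libraries of 10040 to 30336 fragments, so single regions could not be read. The 0 of MethylMagnet allows up to 30.5-fold by the same interval. MethylCollector and MethylCollector Ultra stood at 11.2- and 5.47-fold in DU145. Over all hairpin windows the 3 kits gave 21.7-, 12.8- and 8.08-fold in that line. Fragments were not even over the regions. In HCT15, MethylCollector gave 31 of its 77 fragments at MIR124-3, the region with the most CpGs, and 0 at MIR34A, and MethylMagnet gave 15 of 27 at MIR124-3.

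**Figure D5:**
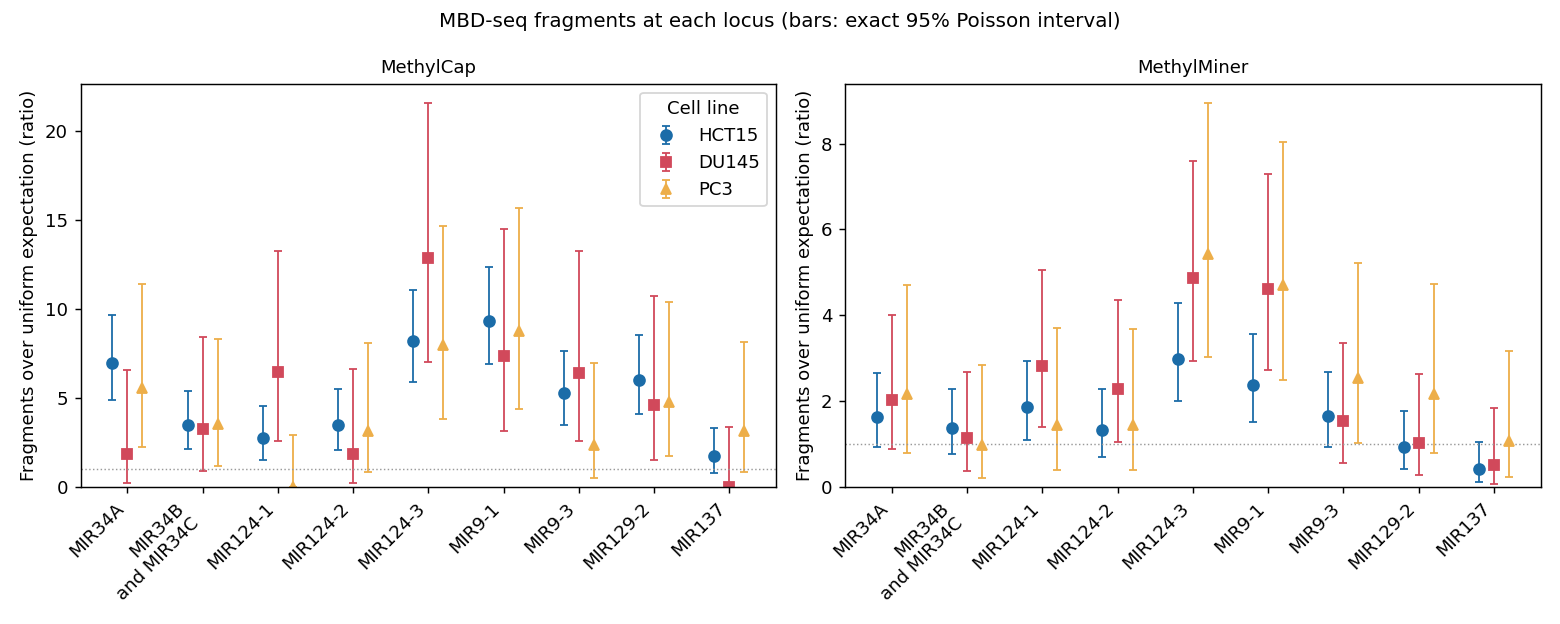
MBD-seq fragments over the number expected under uniform placement (ratio, linear axis) at each region for MethylCap and MethylMiner in HCT15, DU145 and PC3, with exact 95% Poisson intervals and a dotted line at 1. MIR124-3 and MIR9-1 are among the highest regions for both kits, and the intervals of the 3 lines overlap at every region for both kits.

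RRBS gave 13 differences of at least 25 points among the 9 regions and 3 pairs of lines. The line with more methylation also had the higher fold in 11 of 13 for MethylCap and in 5 of 13 for MethylMiner. Several of these were near ties within the intervals. For MethylCap they include 3.48- against 3.28-fold and 3.56- against 3.28-fold at MIR34B and MIR34C, and 8.19- against 7.97-fold at MIR124-3. For MethylMiner the line with more methylation was lower at MIR129-2 by 0.93- against 1.02-fold (HCT15 and DU145). For MethylMagnet, MethylCollector and MethylCollector Ultra the counts were 7, 12 and 8 of 13, with both folds at 0 in 4, 1 and 1. The counts of the 5 kits cannot be read as a ranking. Of the 13 differences, 9 involve DU145, where MethylMagnet, MethylCollector and MethylCollector Ultra gave 0 or 1 fragment at a region. The 13 share libraries and regions, and no test was made of these counts. At MIR34B and MIR34C, where RRBS differed most, the MethylCap counts were 20, 4 and 5 in HCT15, DU145 and PC3, or 3.48-, 3.28- and 3.56-fold, with an interval of 0.89 to 8.41 in DU145. That region therefore showed no difference detectable at this depth. At MIR137 the counts were 9, 0 and 4, or 1.75-fold in HCT15 and 3.18-fold in PC3, and the 0 of DU145 allows up to 3.38-fold. At MIR124-1 they were 14, 7 and 0, or 2.73-fold in HCT15 and 6.44-fold (2.59 to 13.3) in DU145, and the 0 of PC3 allows up to 2.94-fold. At MIR34A, with few CpGs in RRBS, MethylCap gave 36, 2 and 7 fragments, or 6.98-fold (4.89 to 9.66), 1.83-fold (0.22 to 6.61) and 5.55-fold (2.23 to 11.4). Across the 9 regions within a library, Spearman's rho between RRBS methylation and the MethylCap fold was 0.20 in HCT15, 0.00 in DU145 and 0.22 in PC3. For MethylMiner it was -0.15, 0.48 and -0.42. MethylCollector stood at -0.55 in HCT15, and MethylCollector Ultra at -0.42 in HCT15 and 0 in PC3. The 9 points behind each rho share 1 library and differ in their number of CpGs.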

How the data were processed

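MBD-seq and RRBS files of HCT15, DU145 and PC3 were used. Per the study's methods and processing notes, MBD-seq pairs were aligned by Bowtie (hg19, GRCh37), and fragments at the same position counted as 1. The authors deposited the unscaled depth (signal) of those fragments in runs along the genome. Their deposited RRBS tables hold, per CpG, read counts (methylated, and in total), combined over strands, from coverage 6 upwards. The RRBS aligner is not given in the sources used here. RRBS reads carry no molecular identifiers, and whether overlapping ends of a pair were counted separately is not given in the sources used here. Intervals and tests therefore cover counting error of reads only, not of molecules.

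Hairpins were placed by exact match of RefSeq hairpin sequences (7 members), by GENCODE 44 (2 members) or, for MIR124-1, by the shared stretch. CpGs with at least 10 reads within 2 kb of a hairpin were averaged with equal weight, and a region needed 5 CpGs. Fragments were counted as the depth at the window start plus all rises inside it. CpGs were tested by Fisher's exact test, two-sided, with Benjamini-Hochberg adjustment, after the script had been tested on simulated data. Loci and fold ratios had no test. All 10 members are named, with the called CpG of the largest difference for each region, host starts outside the window, and at most 4 genes of the comparison list. Members and lists were chosen with earlier results of these data known. Alternatives were coverage of at least 6 or 20, windows of 1 or 5 kb, pooled reads, CpGs covered in all 3 lines, other thresholds, mean depth, MBD folds without MIR124-1 and MIR124-2, and, added after seeing the data, CpGs outside CCGG. Python 3.11.15, numpy 2.4.6, scipy 1.17.1, numba 0.67.0 and samtools 1.23.1 were used.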

Additional observations from a re-analysis of the deposited data

How the results depend on the processing

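Of the 13 regional differences of at least 25 points, 86 of 90 recomputed values stayed at or above 25 points, 4 fell below and 0 changed sign. The 4 were MIR124-2 between DU145 and PC3 (24.6 points), MIR9-1 between HCT15 and DU145 (22.2) and MIR129-2 between HCT15 and PC3 (14.6) in a window of 1 kb, and MIR124-1 between DU145 and PC3 (18.6) in a window of 5 kb. MIR9-1 between HCT15 and PC3 passed 25 points with coverage of at least 20 (30.7), pooled reads (30.7), CpGs covered in all 3 lines (29.3) and CpGs outside CCGG (25.6, chosen after seeing the data). MIR129-2 passed between DU145 and PC3 in a window of 1 kb (-29.5) and MIR9-3 between HCT15 and PC3 in a window of 5 kb (32.2). Among differences under 25 points the sign turned at MIR9-3 between HCT15 and DU145 (-13.1 with coverage of at least 20, -5.72 with pooled reads) and between DU145 and PC3 (-2.31 outside CCGG), and at MIR34A between HCT15 and PC3 (5.28 in a window of 5 kb). The causes were not tested. Regions higher in DU145 than in PC3 numbered 1 in a window of 1 kb and 1 in a window of 5 kb, and with a level of 30% in place of 50%, 7 regions passed in DU145 and 8 in PC3. MIR34A had too few CpGs for a mean outside CCGG, and MIR34A and MIR137 had too few in HCT15 at coverage of at least 20.

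CpGs called higher in HCT15 than in DU145 fell from 225 to 145 in a window of 1 kb, 146 with at least 50 points and 100 by Bonferroni. Those higher in DU145 went from 8 to 3, 2 and 2 under the same settings, to 16 in a window of 5 kb and to 5 outside CCGG. CpGs called higher in HCT15 than in PC3 went from 225 to 149 at coverage of at least 20, 128 in a window of 1 kb and 116 by Bonferroni, and those higher in PC3 to 0 with at least 50 points and 0 by Bonferroni. Between the prostate lines, CpGs higher in DU145 went from 87 to 43 in a window of 1 kb, 39 with at least 50 points and 34 by Bonferroni, and those higher in PC3 from 82 to 49 and 45 under the last 2 of these.

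In a window of 1 kb the MBD fold in HCT15 rose to 34.3 (MethylCollector), 19.1 (MethylCollector Ultra) and 6.38 (MethylCap). In a window of 5 kb it fell to 19.2 (MethylMagnet), 14.4 (MethylCollector), 8.15 (MethylCollector Ultra) and 3.83 (MethylCap) in HCT15, to 3.21 (MethylCap) in DU145, and to 5.46 (MethylMagnet), 4.63 (MethylCollector Ultra) and 2.64 (MethylCap) in PC3. No paired analysis was possible because each line and kit has 1 library. RRBS covers only CpGs near cut sites, and most MBD-seq counts at a region are too small to compare lines.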

Other observations

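The annotation also lists starts of MIR9-3HG downstream of the MIR9-3 hairpin, 9998 and 11013 bases away, which share their CpGs within 2 kb. Methylation there was 94.4% ± 9.4 in HCT15 (SD, n = 111 CpGs), 88.1% ± 17.9 in DU145 (n = 112) and 71.7% ± 34.6 in PC3 (n = 109). HCT15 exceeded PC3 at 35 of 102 CpGs and was lower at 1, and DU145 exceeded PC3 at 31 of 108 and was lower at 3. Within 200 bases of the farther of these starts, 31 CpGs averaged 96.7%, 98.3% and 92.2% in HCT15, DU145 and PC3. Within 200 bases of the upstream start 5508 bases from the hairpin, 11 CpGs averaged 60.6%, 37.1% and 17.4%.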
